A study of Homo sapiens with 4 samples.

Results

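The NF-kappaB genes described here are 10 listed genes: the subunits NFKB1, NFKB2, REL and RELB, the inhibitors NFKBIA, NFKBIE and TNFAIP3, and the targets BIRC3, TRAF1 and CD83. They were chosen by name, and the probe sets annotated to them were read on 4 whole-transcript microarrays. The platform annotation used here names 1 probe set each for 6 of the 10 genes, out of 14884 named genes: NFKB1, NFKB2, REL, RELB, TRAF1 and CD83. NFKBIA, NFKBIE, TNFAIP3 and BIRC3 have no probe set named there, so their levels were not analysed here and the inhibitors among the listed genes are without values. Of the 6 measured genes, 5 passed the filter on dim genes and were tested. TRAF1 was below it.

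The arrays hold total RNA of ARP-1 and MM.1S, which are established human myeloma lines, derived from malignant plasma cells. Each line was infected with a lentivirus that carries a short hairpin RNA and was sorted for the green fluorescent marker. CTR-KO cells carry a control hairpin and MIF-KO cells a hairpin against MIF, a secreted inflammatory cytokine, so "KO" names a knockdown. There is 1 array for each line and condition, hence n = 2 arrays per condition and per line. The labels name no separate cultures or clones, and p-values measure only the spread between these 4 arrays.

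NF-kappaB is a family of transcription factors that form pairs of subunits and bind short DNA motifs called kappaB sites. In resting cells, inhibitors such as NFKBIA hold the pairs in the cytoplasm. The canonical route, set off by receptors such as those of tumour necrosis factor, frees pairs that contain RELA, REL and the NFKB1 product. The non-canonical route, driven by the kinase MAP3K14, cuts the NFKB2 precursor and so frees its pair with RELB. Several genes of the pathway are themselves targets of NF-kappaB, and many myelomas carry lesions that keep the pathway active.

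Stretches of the promoters of the measured genes that hold kappaB motifs are shown because they mark which of these genes carry the letters the family binds. Sequences are from RefSeq on GRCh38.p14, in windows that run from 250 bases before to 50 bases after an annotated start. The motif searched was the 10-base kappaB consensus, made of 3 G, a purine, 2 bases of any kind, 2 pyrimidines and 2 C, on both strands. Matches that overlap were joined, and capitals mark them within 30 bases of the plus strand.
REL (chr2:60881517-60881546): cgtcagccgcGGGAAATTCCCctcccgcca
NFKB1, the first start (chr4:102501300-102501329): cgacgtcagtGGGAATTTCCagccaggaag
NFKB2, the second start (chr10:102394461-102394490): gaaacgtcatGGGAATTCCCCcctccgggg
NFKB2, the second start (chr10:102394490-102394519): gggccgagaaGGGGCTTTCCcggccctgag
NFKB2, the third start (chr10:102395519-102395548): aacccccaccGGGGCTTCCCggattctcct
NFKB2, the third start (chr10:102395674-102395703): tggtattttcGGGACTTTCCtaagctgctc
CD83, the second start (chr6:14117687-14117716): ctgcccgccGGGGAATCCCCCgggctggcg
CD83, the second start (chr6:14117711-14117740): ctggcgcgcaGGGAAGTTCCCgaacgcgcg

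In REL the match began 47 bases before the start, and in NFKB1 49 bases before the first of 2 annotated starts, the second of which had none. NFKB2 had matches 107 and 78 bases before its second annotated start, and 176 and 21 bases before the third. CD83 had the printed matches 76 and 51 bases before its second start and a further one at 134 bases. TRAF1 had no match in its 3 windows, which says only that these letters are not in those windows. RELB had no window under its symbol in the sequences used, so it was not searched. Of the 5 measured genes with a window, 4 held a match. Over all genes with a window, 13.3% held one (3619 of 27305), and over all 35116 windows 11.3% did. A match is a description of the letters, not a binding site.

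Values are the deposited probe set intensities on a linear scale, and a difference is the log2 value with the MIF hairpin minus that with the control hairpin unless another order is named. MIF itself had intensities of 1092 with the control hairpin and 541 with the MIF hairpin in ARP-1, and 1012 and 405 in MM.1S, lower with the hairpin in each line as the titles have it. The free-text descriptions of the ARP-1 arrays name the opposite condition, so every direction given for ARP-1 follows the titles. By those descriptions MIF would be higher with the MIF hairpin than with the control hairpin in ARP-1. The array medians lay between 13.1 and 13.3. Of the plasma cell markers, 7 of 10 were named and all 7 were tested, with a summed intensity of 5814 to 6856 per array. The sums were 110.2 to 151.1 for 5 T and NK cell markers, 91.7 to 103.9 for 6 myeloid markers and 9.93 to 11.7 for 2 stroma markers. In ARP-1 the plasma cell sum was 5814 with CTR-KO and 6856 with MIF-KO, and in MM.1S it was 6042 and 5929. Most of this sum was IRF4, a plasma cell transcription factor, at 3579 with CTR-KO and 4380 with MIF-KO in ARP-1. Single markers went the other way: in ARP-1 the surface proteoglycan SDC1 read 471 with CTR-KO and 184 with MIF-KO, and the surface enzyme CD38 read 113.5 and 41.8. In MM.1S both were higher with MIF-KO: SDC1 read 337 with CTR-KO and 471 with MIF-KO, and CD38 read 41.0 and 56.2. The markers XBP1 and MZB1 were higher with MIF-KO in ARP-1, by 0.51 and 0.45. Of the 7 plasma cell markers, 2 were at least 1.5-fold lower with the MIF hairpin in ARP-1 and 0 higher. Of all tested genes, 11.9% were lower and 10.9% higher there. In MM.1S 1 marker was lower (MZB1, at -0.63) and 0 higher, against 2.89% and 5.12% of all tested genes. The part of these markers in the results below was not tested.

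Among the 4 subunits, NFKB1 and REL were nearly level, and NFKB2 and RELB had larger differences, opposite in sign between the lines. NFKB1 and REL, of the canonical route, lay within 1.10-fold and 1.17-fold over the 4 arrays. NFKB2 and RELB, the partners of the non-canonical route, were higher with the MIF hairpin in ARP-1 and lower with it in MM.1S. By any amount, 30.1% of all tested genes had these directions. Opposite signs in the lines were seen in 67.6% of them, and also in NFKB1. None of the 4 subunits passed the test over both lines.

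NFKB1 had intensities of 374 with the control hairpin and 346 with the MIF hairpin in ARP-1, and 339 and 368 in MM.1S. The conditions overlapped and so did the lines. Its difference was -0.12 in ARP-1 and 0.12 in MM.1S, and over both lines it was 0.002 (SE 0.30, 95% interval from -0.78 to 0.78, limma adjusted p = 0.99995). Only 4.49% of the tested genes spanned a smaller range over the 4 arrays than NFKB1. With the arrays shifted to the same median the sign of the mean difference turned, to -0.01.

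REL, a subunit found mostly in lymphoid and myeloid cells, read 138 with the control hairpin and 140 with the MIF hairpin in ARP-1, and 157 and 163 in MM.1S. The arrays of MM.1S were above those of ARP-1 in both conditions, and the hairpin made little difference within a line. MM.1S minus ARP-1 was 0.20 (SE 0.29, 95% interval from -0.55 to 0.94, limma adjusted p = 0.99986), a difference within the error. Of all tested genes, 15.8% had both MM.1S arrays above both ARP-1 arrays. The hairpin difference was 0.02 in ARP-1 and 0.05 in MM.1S, and the MM.1S value turned to -0.004 with quantile normalization. Over both lines the hairpin difference was 0.04 (SE 0.29, 95% interval from -0.71 to 0.78).

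NFKB2, the precursor of RELB's partner, read 158 with the control hairpin and 236 with the MIF hairpin in ARP-1, and 257 and 212 in MM.1S. CTR-KO ARP-1 was the low array and the other 3 lay within 1.21-fold of each other. The difference was 0.57 in ARP-1 (1.49-fold) and -0.27 in MM.1S. Over both lines it was 0.15 (SE 0.35, 95% interval from -0.76 to 1.06, limma adjusted p = 0.99995).

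RELB, the subunit that defines the non-canonical pair, read 98.4 with the control hairpin and 139 with the MIF hairpin in ARP-1, and 189 and 116 in MM.1S. The lowest and the highest array were both controls, and the MIF-KO arrays lay between them. The difference was 0.50 in ARP-1 (1.41-fold higher) and -0.71 in MM.1S (1.64-fold higher in the control). Within MM.1S it ranked 117 from the lowest of 7442 tested genes, and within ARP-1 it ranked 1024 from the highest. Over both lines the mean was -0.11 (SE 0.39, 95% interval from -1.12 to 0.90, limma adjusted p = 0.99995). With the ARP-1 arrays exchanged, both genes were by construction lower with the MIF hairpin in each line, since their signs were opposite. Of all tested genes, 30.1% were likewise higher with MIF-KO in ARP-1 and lower in MM.1S. The exchange also makes MIF higher with the MIF hairpin in ARP-1, and under it limma called 5.39% of all tested genes. The mean was then -0.42 for NFKB2 (limma adjusted p = 0.20) and -0.60 for RELB (limma adjusted p = 0.087), and neither passed.

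RELB was the only one of the 5 tested genes past 1.5-fold within a line, in MM.1S and downward, where 2.89% of all tested genes lay. In ARP-1, 0 of 5 were past 1.5-fold in either direction, where 22.8% of all tested genes lay. NFKB2 in ARP-1 was just inside that limit and passed it with quantile normalization, at 1.56-fold. With 1 array per line and condition, these differences have no replicate check, and the difference between the lines could not be tested. It was -1.21 for RELB and -0.85 for NFKB2, as MM.1S minus ARP-1.

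**Figure D1:**
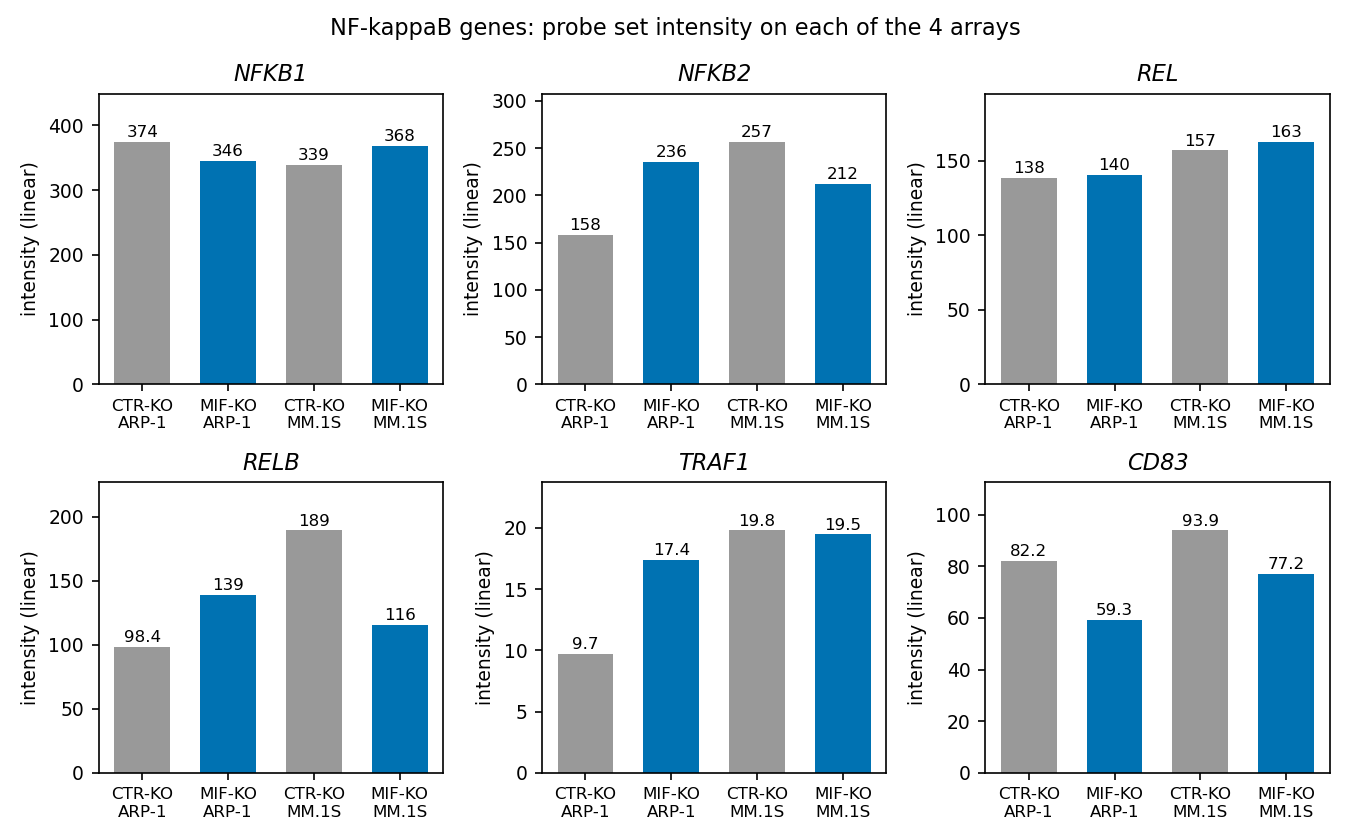
Probe set intensity (linear scale, from 0) of the 6 measured NF-kappaB genes on each of the 4 arrays, grey for CTR-KO and blue for MIF-KO, 1 bar per array with no error bar. NFKB1 and REL are level, NFKB2 and RELB are lowest on CTR-KO ARP-1 and highest on CTR-KO MM.1S, and CD83 is lower with MIF-KO in each line.

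For NFKB2 and RELB the order of the lines was not the same under the 2 hairpins. Under the control hairpin MM.1S was above ARP-1 by 0.70 for NFKB2 (1.62-fold) and by 0.94 for RELB (1.92-fold). Under the MIF hairpin MM.1S was below ARP-1, at -0.15 for NFKB2 and -0.26 for RELB. Under the control hairpin 2 of the 5 tested genes were at least 1.5-fold higher in MM.1S, as 11.2% of all tested genes were. Under the MIF hairpin 0 of 5 were 1.5-fold apart in either direction, against 12.6%. These comparisons share arrays with those of the hairpin and are the same 4 values read the other way. Over both conditions MM.1S minus ARP-1 was 0.27 (SE 0.35) for NFKB2 and 0.34 (SE 0.39) for RELB, each with a limma adjusted p of 0.99986.

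For both genes CTR-KO ARP-1 was the lowest of the 4 arrays and CTR-KO MM.1S the highest. Of all tested genes, 13.7% had this order (1018 of 7442), and 2 of the 5 tested NF-kappaB genes did. Likewise 30.1% of all tested genes were higher with MIF-KO in ARP-1 and lower in MM.1S by any amount. CTR-KO ARP-1 alone was the lowest array for 32.5% of the tested genes.

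No tested gene of the list spanned 1 log2 unit over the 4 arrays, the span set for a search of similar profiles. NFKB2 and RELB were searched after their values were seen, by the Euclidean distance between log2 levels centred on each gene's mean over the 4 arrays. Nearest to NFKB2 were BLVRB, a biliverdin reductase (distance 0.03), and TOM1L2, a trafficking adaptor (0.03). Nearest to RELB were the ribosomal protein pseudogene RPL32P3 (0.08) and the phosphatase PHPT1 (0.09). NFKB2 ranked 179 from RELB among the other tested genes, and RELB ranked 865 from NFKB2, at a distance of 0.32. With 4 arrays many genes come close by this measure.

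Of the measured targets, TRAF1 had the order of NFKB2 and RELB, with CTR-KO ARP-1 lowest and CTR-KO MM.1S highest, though its MM.1S arrays lay within 1.02-fold of each other. CD83 did not have this order. TRAF1, an adaptor of tumour necrosis factor receptors that NF-kappaB induces, was dim: it read 9.70 with the control hairpin and 17.4 with the MIF hairpin in ARP-1, and 19.8 and 19.5 in MM.1S. CTR-KO ARP-1 was again the low array, and the others lay closer together. The median over all probe sets was 13.1 to 13.3 on each array, so TRAF1 on CTR-KO ARP-1 lay below it. The log2 mean of TRAF1 was 3.997, under the filter of 4.97, and it entered no test in the main fit. Without the filter its difference over both lines was 0.41 (SE 0.24, limma adjusted p = 0.99996 over 14884 genes), from 0.84 for ARP-1 and -0.02 for MM.1S. The size of the ARP-1 difference is uncertain at such low signal.

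CD83, a surface protein of activated B cells and dendritic cells, was the only tested gene of the list lower with the MIF hairpin in each line. It read 82.2 with the control hairpin and 59.3 with the MIF hairpin in ARP-1, and 93.9 and 77.2 in MM.1S. Both MIF-KO arrays lay below both CTR-KO arrays, as was so for 9.47% of all tested genes. By any amount, 14.8% of all tested genes were lower with the hairpin in each line. The difference was -0.47 for ARP-1 and -0.28 for MM.1S. The mean of -0.38 (SE 0.26, 95% interval from -1.04 to 0.28) did not pass the test (limma adjusted p = 0.99995). With the ARP-1 arrays exchanged, as their descriptions would have it, the sign turned, to 0.09.

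Over both lines limma called 0 of the 5 tested genes, and 0% of all 7442 tested genes in either direction at an adjusted p below 0.05. MIF, the target of the hairpin, was not called either, at -1.17 (SE 0.29, limma adjusted p = 0.99995). A gene that was not called is therefore not shown to be unchanged. At an unadjusted p below 0.05 there were 29 genes over the whole table and none of the 5. The median difference of the 5 genes in ARP-1 was 0.02 and in MM.1S -0.27, against -0.03 and 0.04 over all tested genes. Opposite signs in the lines were seen in 3 of the 5 and in 67.6% of all tested genes, and opposite differences of at least 1.5-fold in 0 of the 5 and in 4.88%. With the ARP-1 arrays exchanged, limma called 5.39% of all tested genes and 0 of the 5.

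**Figure D2:**
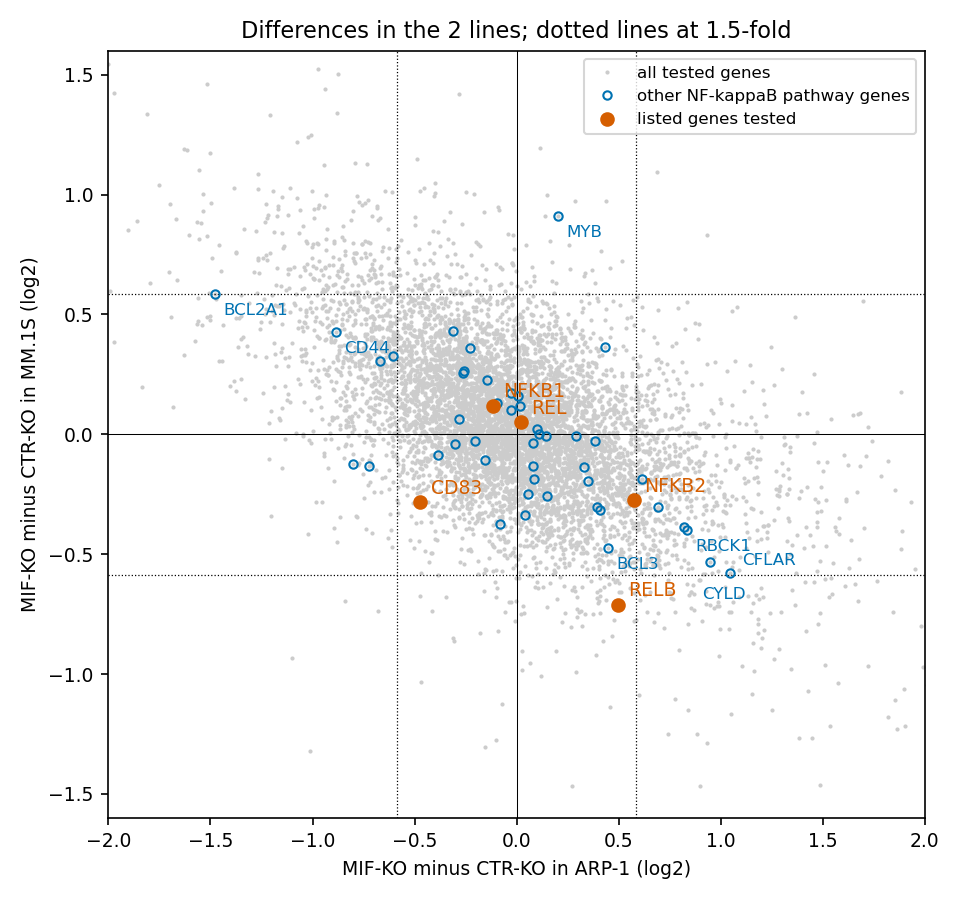
Log2 difference MIF-KO minus CTR-KO in ARP-1 (x axis) and in MM.1S (y axis), 1 array per line and condition. Grey points are all tested genes (48 lie outside the axes), open blue circles other NF-kappaB pathway genes and orange points the 5 tested listed genes. RELB is the only orange point past a dotted 1.5-fold line, at -0.71 in MM.1S, and NFKB2 lies just inside the other line at 0.57 in ARP-1.

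Other genes of the pathway were taken from lists by role, apart from the 10 genes. Of 95 such genes 60 were named and 46 tested, and limma called 0 of them. Of the 46, in ARP-1 the MIF hairpin had 6 at least 1.5-fold higher and 6 lower, where 10.9% and 11.9% of all tested genes were. In MM.1S 2 were higher and 0 lower, where 5.12% and 2.89% of all tested genes were.

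Receptors and adaptors carry the signal from the cell surface, and 7 of 21 were named and tested. None was 1.5-fold apart in either line. TRAF5, an adaptor of the tumour necrosis factor receptor family, had a difference of 0.43 in ARP-1 and of 0.36 in MM.1S. TRADD, the adaptor of the death domain receptors, differed by 0.38 and -0.03, the kinase IRAK1 by -0.08 and -0.37, and the Toll-like receptor adaptor MYD88 by -0.26 and 0.26. TRAF3, which holds the non-canonical route in check, read 151 with the control hairpin and 160 with the MIF hairpin in ARP-1, and 169 and 154 in MM.1S, and the conditions overlapped.

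Of the kinases and ubiquitin enzymes 14 of 20 were tested. With the MIF hairpin in ARP-1, 3 of them were at least 1.5-fold higher and 1 was lower. The shares of all tested genes were 10.9% and 11.9%. The 3 were CYLD, a deubiquitinase that restrains the pathway, RBCK1, a part of the linear ubiquitin ligase, and BIRC2, a ubiquitin ligase and paralog of BIRC3. CYLD read 110.6 with the control hairpin and 214 with the MIF hairpin in ARP-1, and 206 and 142 in MM.1S. Its difference was 0.95 in ARP-1 and -0.53 in MM.1S. RBCK1 differed by 0.84 and -0.40, and BIRC2 by 0.62 and -0.19.

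CTR-KO ARP-1 was the lowest array for these 3 genes, which were picked for a higher value in MIF-KO ARP-1 than in that array. It was the lowest array for 32.5% of all tested genes. CHUK, a catalytic kinase of the pathway, was the gene that was lower, with differences of -0.61 in ARP-1 and 0.33 in MM.1S. MAP3K14, the kinase of the non-canonical route, read 81.8 with the control hairpin and 70.9 with the MIF hairpin in ARP-1, and 88.7 and 86.9 in MM.1S. Its differences were -0.21 and -0.03, so it did not share the order of the arrays seen for NFKB2 and RELB.

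Of the other subunits and inhibitors, 7 of 12 were tested. In MIF-KO ARP-1, 2 were at least 1.5-fold lower and 0 higher, where 11.9% and 10.9% of all tested genes were. RELA, the main activating subunit of the canonical route, read 619.5 with the control hairpin and 655 with the MIF hairpin in ARP-1, and 604 and 589 in MM.1S. Like NFKB1 it was nearly level, with differences of 0.08 and -0.03. BCL3, a nuclear partner of the NFKB2 and NFKB1 products, had the order of RELB: 94.3, 129, 160 and 115 in the same sequence of arrays, with differences of 0.45 and -0.47. COMMD1, which promotes the breakdown of RELA, had a difference of -0.72 in ARP-1 and of -0.13 in MM.1S. PDLIM2, a ligase that acts on RELA, differed by -0.67 and 0.31. TNIP1, a partner of TNFAIP3, differed by 0.06 and -0.25, and it also had CTR-KO ARP-1 lowest and CTR-KO MM.1S highest. Of the 46 tested pathway genes apart from the listed ones, 8 had this order, against 13.7% of all tested genes.

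**Figure D3:**
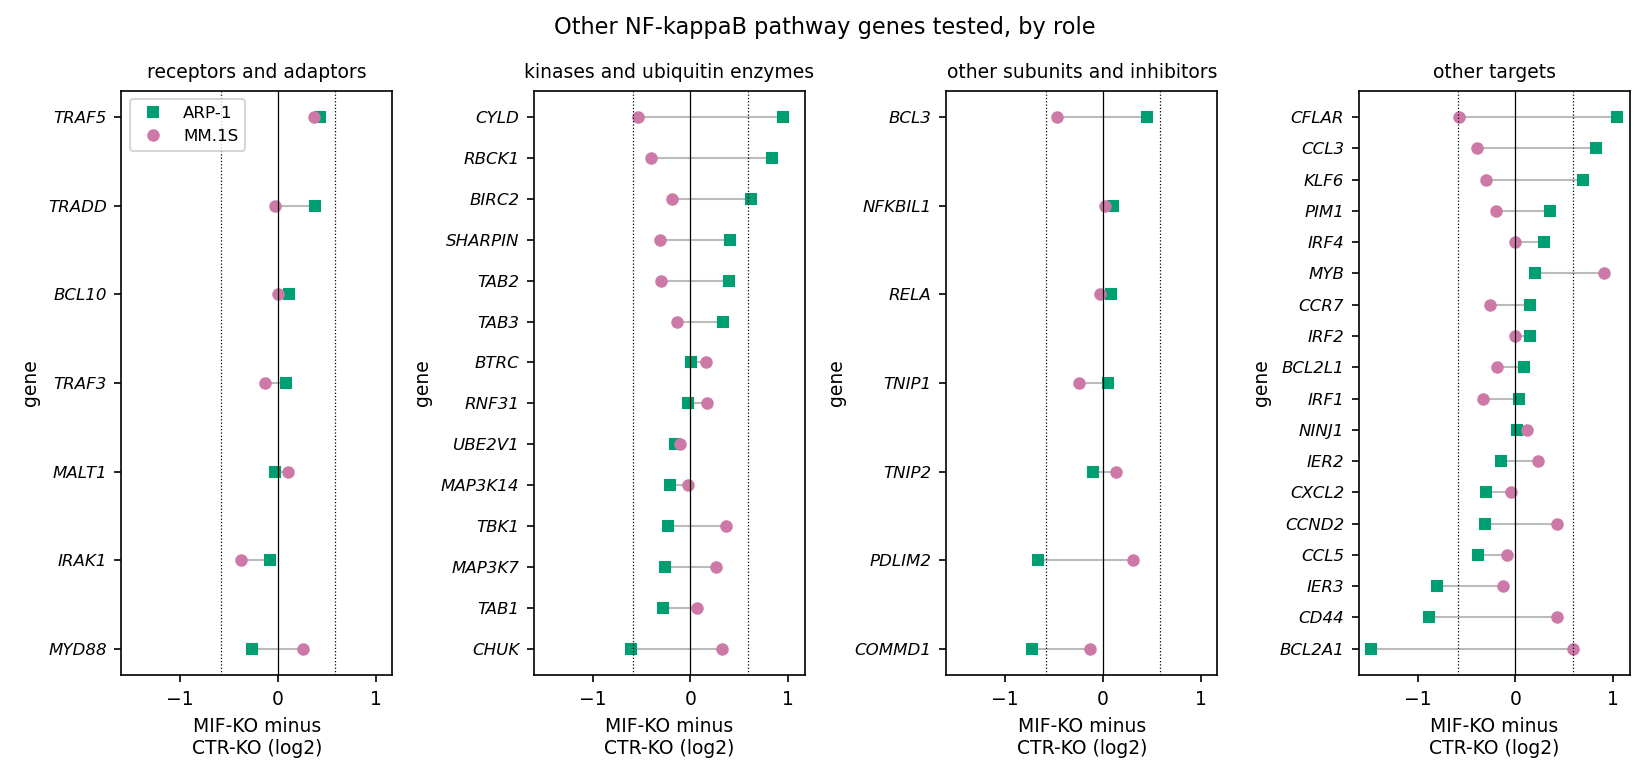
Log2 difference MIF-KO minus CTR-KO for each tested pathway gene apart from the listed ones, in 4 panels by role, with green squares for ARP-1 and pink circles for MM.1S, 1 array per line and condition. Grey lines join the values of a gene and dotted lines mark 1.5-fold. The widest gaps are in BCL2A1, CFLAR, CYLD and CD44.

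Known NF-kappaB targets differed both ways, with 18 of 39 tested and none called. With the MIF hairpin in ARP-1, 3 were 1.5-fold or more higher (CFLAR, CCL3 and KLF6) and 3 lower (BCL2A1, CD44 and IER3). In MM.1S, 2 were higher (MYB and BCL2A1) and 0 lower. Of all tested genes, 10.9% were higher and 11.9% lower in ARP-1, and 5.12% higher and 2.89% lower in MM.1S. CCL3, KLF6 and IER3 were named after their values were seen. CFLAR, an inhibitor of death receptor caspases, had a difference of 1.04 in ARP-1 and of -0.58 in MM.1S. BCL2A1, a survival protein of the BCL2 family, differed by -1.48 and 0.59, opposite to CFLAR in each line.

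The other targets past 1.5-fold showed no shared direction. The chemokine CCL3 differed by 0.82 and -0.39, and the transcription factor KLF6 by 0.69 and -0.30. The adhesion receptor CD44 differed by -0.89 and 0.43, IER3, an early response gene, by -0.80 and -0.13, and the transcription factor MYB by 0.20 and 0.91. The median of the 18 targets was 0.06 in ARP-1 and -0.06 in MM.1S.

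A published index of 11 genes scores NF-kappaB activity in myeloma, and 3 of them were tested here: NFKB2, RELB and MALT1. MALT1, a protease of the antigen receptor route, differed by -0.03 in ARP-1, turning to 0.03 with quantile normalization, and by 0.10 in MM.1S. With 3 of 11 genes the index could not be scored.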

How the data were processed

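RNA of 4 samples was measured on whole-transcript arrays. The authors deposited probe set intensity values on a linear scale (2.74 to 15935). Per the submitters' processing notes the tools were RMA and limma. Their roles and versions, and the array build, were not given in the sources used here. Where the design had taken log2 as given, log2 was computed, with no pseudocount. The platform annotation gave 1 symbol for 16098 of 53617 probe sets. For genes with several, the probe set of highest mean was used. The brighter genes, from the median of gene means upward (log2 4.97), were tested.

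The model was limma 3.58.1 (R 4.3.3) with cell line and condition, eBayes with a trend and Benjamini-Hochberg adjustment over 7442 genes, threshold 0.05. It leaves 1 residual degree of freedom, the disagreement of the lines, and the prior adds 3.99. Cell line pairs the arrays by the labels. After each condition's mean was removed, the arrays of a line correlated at -0.37 across genes. The number of arrays limits the precision.

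Members and lists were chosen with earlier results of these data known. Named were all 10 genes, up to 4 genes per list with the largest difference in either line, RELA, TRAF3 and MAP3K14, and the 2 nearest profiles of a tested gene spanning 1 log2 unit. Alternatives covered filter, scaling, offset, probe sets, trend, model terms, the exchange of the ARP-1 arrays and each line alone.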

Additional observations from a re-analysis of the deposited data

Results flagged for a closer look

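Among the NF-kappaB genes named above, BCL2A1 differed at least 1.5-fold in opposite directions in the lines, as 4.88% of all tested genes did. It read 61.4 with the control hairpin and 22.1 with the MIF hairpin in ARP-1, and 33.8 and 50.7 in MM.1S, differences of -1.48 and 0.59. The difference between the lines was not tested, since each rests on 1 array per condition. In MM.1S the difference was at the limit itself and fell under it with the arrays shifted to the same median (0.56), with quantile normalization (0.55) and with a pseudocount of 16 (0.42). The ARP-1 difference rests on a low MIF-KO reading and shrank to -1.02 with a pseudocount of 16.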

How the results depend on the processing

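The counts of called genes, 0 for the hairpin and 0 for the line, stayed at 0 under every alternative run except the exchange of the ARP-1 arrays. With that exchange 401 genes (5.39%) passed for the hairpin, and 0 of the 5 tested NF-kappaB genes were among them. The exchange also makes MIF higher with the MIF hairpin in ARP-1. NFKB2 then turned to -0.42 and CD83 to 0.094, and RELB kept its direction at -0.60 (limma adjusted p = 0.087). With no replicate block, that is without the cell line term, the hairpin difference of NFKB2 stayed at 0.15 and 0 genes passed, so the pairing changed no call. With arrays shifted to the same median, NFKB1 turned to -0.014. With quantile normalization 1 of the 5 genes was past 1.5-fold upward in ARP-1, in place of 0. CHUK in ARP-1 fell under 1.5-fold with quantile normalization (-0.56) and with a pseudocount of 16 (-0.55), which also took BIRC2 (0.54), COMMD1 (-0.52) and PDLIM2 (-0.51) under it. CFLAR in MM.1S passed it downward with arrays shifted to the same median (-0.60) and with quantile normalization (-0.61). The cause was not tested.

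With each line left out in turn, the hairpin difference ran from -0.12 to 0.12 for NFKB1, from -0.27 to 0.57 for NFKB2 and from -0.71 to 0.50 for RELB, so these means have no direction shared by the lines. With each condition left out, the line difference ran from -0.14 to 0.091 for NFKB1, from -0.15 to 0.70 for NFKB2 and from -0.26 to 0.94 for RELB.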
